A study of Homo sapiens with 4 samples.

Results

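Collagen genes encode the chains of the triple-helical proteins that build the extracellular matrix (ECM). They were defined by symbol, as the 44 protein-coding genes of GENCODE release 29 named COL, a number, A and a number, of 19951 protein-coding genes in all. A gene counted as listed in a cell line when its identifier stood under at least 1 term of the Gene Ontology (GO) table of that comparison. A listed gene was therefore one that the authors had called differentially expressed and that carried a GO term. The members to be described were thus chosen by the same readout that is counted below, and their listing is given as a description with no test.

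The study sequenced ribosomal RNA-depleted total RNA of HepG2 and Huh7, both labelled as hepatocellular carcinoma cell lines. The 4 groups were HepG2 cells before treatment, HepG2 cells after sonodynamic therapy (SDT), Huh7 cells before treatment and Huh7 cells after SDT, with 1 library in each. SDT was given as nanobubbles loaded with the sonosensitizer hematoporphyrin monomethyl ether (HMME) and the drug lonidamine (LND) under low-frequency ultrasound. HMME, LND, nanobubbles and ultrasound came together in both treated groups, so their effects cannot be told apart. The tables used here hold the listed genes of each GO term and each KEGG pathway with the number of background genes. They give no level, no direction of change and no depth of a library, and a gene outside a list may have been unchanged, too low to call or without a term. Without levels, the labelled cell type could not be checked against its markers.

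Each collagen molecule is a trimer, made of chains from 1 gene or from several, and the fibrillar collagens form the fibrils that give tissue its tensile strength. Network collagens form the sheets of basement membranes, FACIT collagens (fibril-associated collagens with interrupted triple helices) sit on fibril surfaces, and transmembrane collagens are anchored in the cell membrane. In the liver, hepatic stellate cells and fibroblasts are the main source of the fibrillar collagens that accumulate in fibrosis, whereas hepatocytes make collagen XVIII.

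In HepG2 cells, 30 of the 44 collagen genes were listed after SDT, or 68.2%, where the whole list took 21.6% of the 22148 genes of the GO background and 23.9% of the protein-coding genes. In Huh7 cells, 17 of the 44 were listed, or 38.6%, beside 19.7% of the GO background and 21.9% of the protein-coding genes. Both lists held 14 of the 44, or 31.8%, beside 10.3% of the GO background. These 14 were 46.7% of the listed collagen genes of HepG2 and 82.4% of those of Huh7, where the genes shared over the whole lists were 47.7% and 52.2%. The HepG2 share was thus near that over all listed genes. The HepG2 list alone held 16 of the 44, a share over the 11.3% of the GO background. The Huh7 list alone held 3 of the 44, COL8A2, COL19A1 and COL6A6, a share under the 9.43% of the GO background. Neither list held the remaining 11, or 25.0% of the 44, beside 69.0% of the GO background. The HepG2 list was 1.09 times as long as the Huh7 list over all genes and held 1.76 times as many collagen genes; this difference between the cell lines was not tested. A listing does not say whether a gene rose or fell. In bulk RNA, a change in the number of expressing cells and a change in RNA per cell cannot be told apart.

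**Figure D1:**
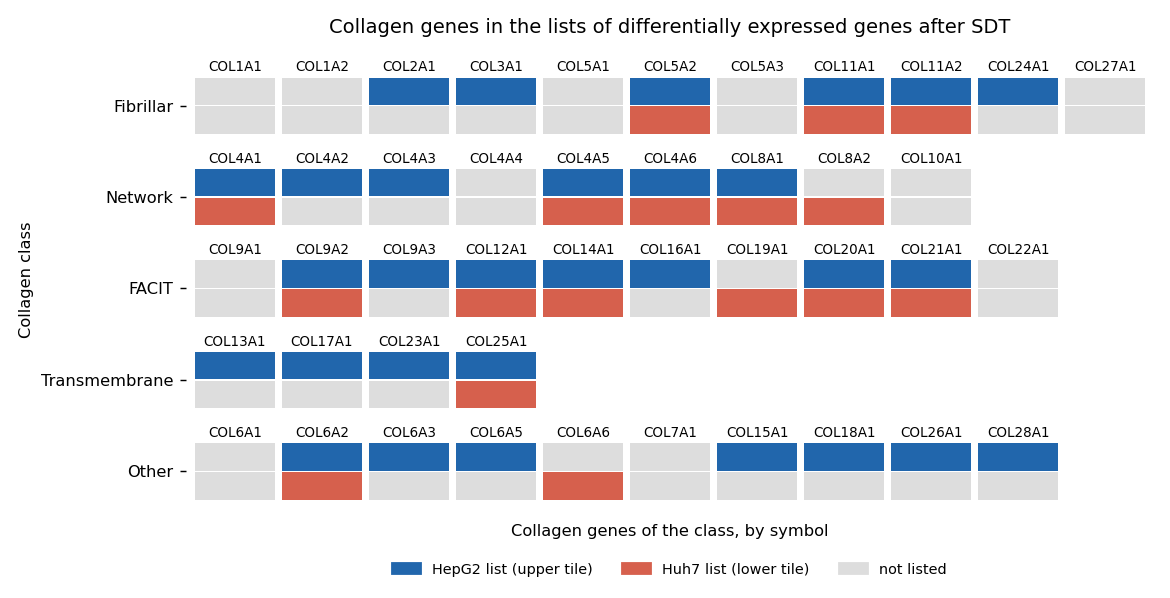
Each column is 1 of the 44 collagen genes, in rows by class; the upper tile is coloured where the gene was in the HepG2 list and the lower tile where it was in the Huh7 list. Blue tiles alone mark the 16 genes of the HepG2 list alone, and 3 genes have only a red tile.

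Of the 11 fibrillar collagens, 5 were outside both lists (45.5%), the highest share of the 5 classes and under the 69.0% of the GO background. COL1A1 and COL1A2, which encode the chains of collagen I, the main collagen of scar and bone, were in neither list. COL3A1, the chain of collagen III found beside collagen I in soft tissue, was in the HepG2 list alone, as were COL2A1, the chain of cartilage collagen II, and COL24A1. Both lists held COL11A1 and COL11A2, chains of collagen XI, which sits inside cartilage fibrils and limits their diameter. Collagen V does the same in collagen I fibrils, and of its genes COL5A2 was in both lists and COL5A1 and COL5A3 in neither. COL27A1, a fibrillar chain of developing cartilage, was in neither list. In all, the HepG2 list held 6 of 11 fibrillar genes and the Huh7 list 3 of 11, and those 3 were in the HepG2 list as well. These shares were 54.5% and 27.3%, and that of Huh7 was near the 21.9% of all protein-coding genes.

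Of the 9 network collagens, 6 were in the HepG2 list (66.7%) and 5 in the Huh7 list (55.6%), with 4 shared (44.4%). Over all protein-coding genes the shares were 23.9% and 21.9%, and 10.3% of the GO background was in both lists. COL4A1, COL4A5 and COL4A6, chains of the basement membrane collagen IV, were in both, while COL4A2 and COL4A3 were in the HepG2 list alone and COL4A4 was in neither. COL8A1, a chain of the collagen VIII of vessel walls and of the membrane under the corneal endothelium, was in both lists, and its partner chain COL8A2 was in the Huh7 list alone. COL10A1, the collagen of hypertrophic cartilage, was in neither.

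The 6 genes of collagen IV lie in 3 head-to-head pairs, each pair transcribed in opposite directions from a shared start region. The pairs were listed in 3 different ways, so the bases between their starts are shown. COL4A1 (ENSG00000187498) was in both lists and COL4A2 (ENSG00000134871) in that of HepG2 alone. Of the second pair, COL4A3 (ENSG00000169031) was in the HepG2 list and COL4A4 (ENSG00000081052) in neither, and of the last pair, COL4A5 (ENSG00000188153) and COL4A6 (ENSG00000197565) were each in both. Between the RefSeq starts (GRCh38.p14) lie 126 bases in the first pair, 418 in the second and 379 in the last. All the bases between the starts are printed for the first pair, and the 250 bases before the start of COL4A3 and of COL4A5 for the others, on the plus strand. Capitals mark matches, on either strand, to GGGCGG, the core of a GC box, and CCAAT.
COL4A1 and COL4A2, chr13:110307158-110307283: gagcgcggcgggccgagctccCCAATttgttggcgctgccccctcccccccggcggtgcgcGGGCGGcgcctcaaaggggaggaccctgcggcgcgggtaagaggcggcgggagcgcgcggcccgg
COL4A3 and COL4A4, chr2:227164374-227164623: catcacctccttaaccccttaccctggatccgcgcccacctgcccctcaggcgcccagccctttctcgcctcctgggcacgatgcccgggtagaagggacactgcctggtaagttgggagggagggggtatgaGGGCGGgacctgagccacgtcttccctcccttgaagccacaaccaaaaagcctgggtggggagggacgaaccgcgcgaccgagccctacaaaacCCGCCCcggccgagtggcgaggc
COL4A5 and COL4A6, chrX:108439588-108439837: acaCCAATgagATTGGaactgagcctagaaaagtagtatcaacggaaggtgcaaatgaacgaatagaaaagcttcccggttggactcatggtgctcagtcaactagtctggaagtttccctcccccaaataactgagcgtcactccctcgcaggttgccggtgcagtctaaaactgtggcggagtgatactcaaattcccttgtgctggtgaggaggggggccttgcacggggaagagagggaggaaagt

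The stretch between COL4A1 and COL4A2 held 1 GGGCGG and 1 CCAAT and had a GC content of 80.2%. That of COL4A3 held 2 matches to GGGCGG and no CCAAT at 66.4% GC, and that of COL4A5 held 2 matches to CCAAT and no GGGCGG at 51.2% GC. None of these stretches held TATAAA, the TATA box core, or TGANTCA, the AP-1 motif. Of 27305 RefSeq genes, 42.3% had GGGCGG in the 250 bases before the start, 33.0% had CCAAT, 11.1% had TATAAA and 6.60% had TGANTCA, counted on both strands. In the 126 bases before the start these shares were 34.6%, 21.9%, 6.23% and 3.47%. The motifs share no letters in these stretches, and a match is a run of letters, not a site shown to be used.

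The FACIT collagens had the highest share listed in Huh7 cells of the 5 classes, with the network collagens near it at 55.6%. Of the 10 genes, the HepG2 list held 7 (70.0%) and the Huh7 list 6 (60.0%), beside 23.9% and 21.9% of all protein-coding genes. Both lists held 5 of the 10, beside 10.3% of the GO background. These 5 were COL9A2, a chain of the collagen IX of cartilage fibrils, COL12A1 and COL14A1, whose products bind collagen I fibrils in tendon and skin, and COL20A1 and COL21A1. COL9A3, a further chain of collagen IX, and COL16A1, which is found on fibrils in skin and cartilage, were in the HepG2 list alone. COL19A1, a FACIT chain of muscle and brain, was in the Huh7 list alone, and COL9A1 and COL22A1, the chain of the muscle-tendon junction, were in neither.

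All 4 transmembrane collagens were in the HepG2 list, beside 23.9% of all protein-coding genes. The Huh7 list held 1 of the 4, a share of 25.0% that was near the 21.9% of all protein-coding genes. That gene was in both lists, beside 10.3% of the GO background. The gene in both lists was COL25A1, whose product was named for its presence in amyloid plaques of the brain. COL13A1, a collagen of the neuromuscular junction, COL17A1, which anchors epithelial cells to the basement membrane in hemidesmosomes, and COL23A1 were in the HepG2 list alone.

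The other 10 collagens gave 7 genes in the HepG2 list (70.0%), beside 23.9% of all protein-coding genes. They gave 2 in the Huh7 list and 1 in both. The Huh7 and shared counts, 2 of 10 and 1 of 10, were near the shares over all genes, 21.9% of protein-coding genes and 10.3% of the GO background. The gene in both lists was COL6A2, a chain of the beaded microfibrils of collagen VI. Of the same collagen, COL6A3 and COL6A5 were in the HepG2 list alone, COL6A6 in the Huh7 list alone and COL6A1 in neither. COL15A1 and COL18A1, basement membrane collagens that carry heparan or chondroitin sulfate chains, were in the HepG2 list alone, and COL18A1 is the source of the fragment endostatin. COL26A1 and COL28A1 were in that list alone too. COL7A1, the collagen of the anchoring fibrils under the epidermis, was in neither list.

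Genes whose chains can mix in trimers were put in 9 sets, and COL4A5 was in 2 of them. The set of collagen VI has 5 genes, more than the 3 chains of 1 trimer. In 2 of the 9 sets all chains were listed in the same way, collagen I in neither list and the trimer of COL4A5 and COL4A6 in both. Of the trimer of COL4A1 and COL4A2, 2 of 2 chains were in the HepG2 list and COL4A1 alone in that of Huh7. For the trimer of COL4A3, COL4A4 and COL4A5, found in the kidney glomerulus, the HepG2 list held 2 of 3 chains and the Huh7 list 1 of 3. Collagen XI, whose trimer holds COL11A1, COL11A2 and a product of COL2A1, had 3 of 3 chains in the HepG2 list and 2 of 3 in the Huh7 list. Collagen VIII was complete in the Huh7 list, with 2 of 2 chains, and not in that of HepG2, with 1 of 2. Collagen VI had 3 of 5 chains in the HepG2 list and 2 of 5 in the Huh7 list, with COL6A2 shared. Collagen IX had 2 of 3 and 1 of 3, and collagen V had 1 of 3 in each list. Over all protein-coding genes, 23.9% were in the HepG2 list and 21.9% in the Huh7 list. Of the GO background, 10.3% was in both lists and 69.0% in neither. Other sets of genes were not counted in this way, so whether 2 of 9 differs from them was not tested.

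By the gene order of RefSeq (GRCh38.p14), 7 pairs of collagen genes are direct neighbours among protein-coding genes, and in 1 of the 7, COL4A5 and COL4A6 on chromosome X, both genes had the same listing. COL3A1 and COL5A2, neighbours on chromosome 2, were in the HepG2 list alone and in both lists. COL6A5 and COL6A6, neighbours on chromosome 3, were split between the cell lines. COL6A1 and COL6A2 on chromosome 21 were in neither list and in both, and COL19A1 and COL9A1 on chromosome 6 in the Huh7 list alone and in neither. The other pairs were those of COL4A1 with COL4A2 on chromosome 13 and COL4A3 with COL4A4 on chromosome 2. Of the GO background, 10.3% was in both lists, 11.3% in that of HepG2 alone, 9.43% in that of Huh7 alone and 69.0% in neither. Neighbouring pairs over all genes were not counted, so whether 1 of 7 was low or usual was not tested.

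Collagen transcripts are long, and a long transcript gives more fragments to sequence than a short one at the same level. Whether length had a part in the listing of the collagen genes was not tested. The longest transcript of the 44 genes ran from 2497 bases in COL9A3 to 11723 in COL12A1, with a median of 6386, where the median over the protein-coding genes with a transcript sequence was 3157. The median was 6550 bases for the 14 collagen genes of both lists, 5616 for the 16 of the HepG2 list alone, 6233 for the 3 of the Huh7 list alone and 6346 for the 11 of neither. The lengths of the 4 sets overlapped. When the 19922 protein-coding genes with a transcript sequence were put in 4 bins of about equal size by length (29 had none), the longest bin held 32 of the 44 collagen genes. In that bin, 26.5% of all genes were in the HepG2 list and 23.2% in the Huh7 list, and of the 32 collagen genes 22 and 13 were. The shortest bin held no collagen gene and had 19.5% and 18.4% of its genes listed. The bins between did not follow length, with 25.6% and 23.5% in the second and 24.1% and 22.4% in the third. The second held 4 collagen genes, of which 4 were in the HepG2 list and 1 in the Huh7 list, and the third held 8, of which 4 and 3 were listed.

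**Figure D2:**
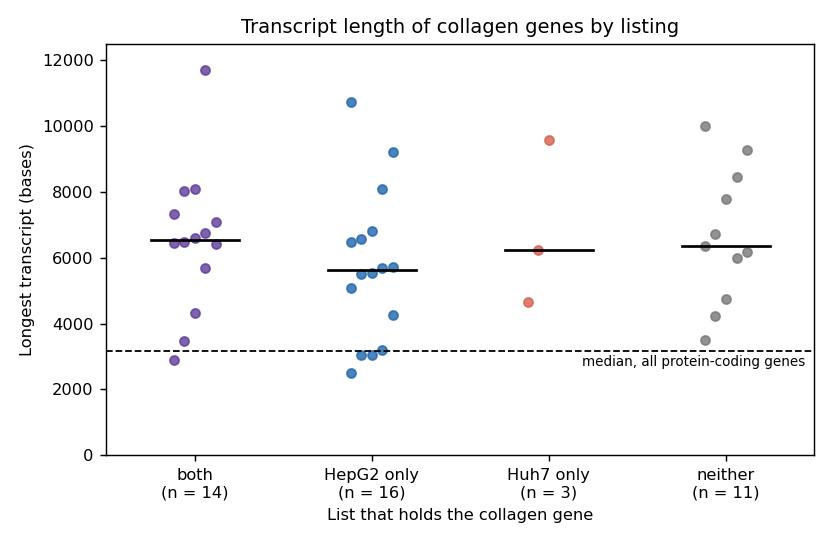
Each point is 1 collagen gene, placed by the list that holds it (x axis) and the length of its longest GENCODE transcript in bases (y axis); bars are medians and the dashed line is the median of all protein-coding genes, 3157 bases. The 4 sets of collagen genes overlap in length, with medians from 5616 to 6550 bases.

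The GO table groups collagens by structure as well. Of its 72 terms with the words collagen or extracellular matrix in the name, 38 had more genes in the HepG2 list, 21 had more in the Huh7 list and 13 had the same number. Of the 33 terms with a listed collagen gene, these counts were 24, 3 and 6. The terms overlap in their genes and are not separate observations, and those below were picked from the 72 after their values were seen. Their shares stand beside 21.6% and 19.7% of the GO background. The term "extracellular matrix structural constituent conferring tensile strength" held collagen genes alone among its listed genes. Of its 41 background genes, 26 were in the HepG2 list (63.4%) and 14 in the Huh7 list (34.1%). Sheet-forming collagen had 6 of 7 background genes in the HepG2 list and 4 of 7 in the Huh7 list, and FACIT collagen 5 of 6 and 3 of 6. Anchoring collagen had 7 of 10 and 3 of 10, of which 6 and 3 were collagen genes. Fibrillar collagen was lower, with 5 of 15 and 4 of 15, and 1 of the 4 in Huh7 cells was not a collagen gene. Among other constituents of the matrix, the term for compression resistance had 6 of 23 genes listed in each cell line (26.1%, near the share of the GO background), with no collagen gene, and the small term for elasticity had 5 of 7 and 3 of 7.

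Other terms describe what is done to collagen. Over the whole GO background, 21.6% of genes were in the HepG2 list and 19.7% in the Huh7 list. Collagen fibril organization had 19 of 57 genes in the HepG2 list and 18 of 57 in the Huh7 list, with 7 and 5 collagen genes. Collagen catabolic process had 15 of 44 and 17 of 44, with 2 and 1 collagen genes. Collagen binding had 26 of 80 and 39 of 80, with 1 collagen gene in each. The term extracellular matrix itself had 153 of 406 background genes in the HepG2 list and 134 of 406 in the Huh7 list, of which 30 and 17 were collagen genes. Without them, 123 and 117 other genes were listed. Extracellular matrix organization had 133 and 137 of 367 genes, with 26 and 14 collagen genes, and extracellular matrix disassembly 17 (19.5%, under the 21.6% of the GO background) and 28 (32.2%) of 87, with 0 collagen genes. Basement membrane had 41 and 35 of 93 genes, and 29 in each cell line were not collagen genes.

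In KEGG, the pathway Protein digestion and absorption covers the breakdown of dietary protein and the uptake of amino acids, and collagens are in it as food proteins to be digested. In HepG2 cells 42 of its 89 background genes were listed (47.2%), beside 26.3% of the gene-to-pathway entries of the whole KEGG table. Of the 42, 22 were collagen genes (52.4%). In Huh7 cells 36 of the 89 were listed (40.4%), beside 25.8% of all entries, and 12 of the 36 were collagen genes (33.3%). There were 11 collagen genes in this pathway in both cell lines. The genes that were not collagens came to 20 in HepG2 cells and 24 in Huh7 cells. Among them were solute carriers, which take up amino acids or exchange ions, and subunits of the sodium pump.

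The pathway ECM-receptor interaction joins matrix proteins to the integrins and other receptors that bind them. It had 41 of 87 background genes in the HepG2 list (47.1%) and 38 of 87 in the Huh7 list (43.7%). These shares stood beside 26.3% and 25.8% of all KEGG entries. The collagen genes were 14 of the 41 (34.1%) and 8 of the 38 (21.1%), with 7 in both cell lines. All 14 and all 8 were among the collagen genes of Protein digestion and absorption. They were the fibrillar, collagen IV and collagen VI chains, with no FACIT or transmembrane gene. The 27 and 30 other genes included integrin subunits and laminin chains.

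The same 14 and 8 collagen genes stood in Focal adhesion, the contacts that tie the matrix to actin, where they were 14 of 67 and 8 of 61 listed genes. They stood also in the PI3K-Akt signaling pathway, as 14 of 115 and 8 of 101. Of the background genes of Focal adhesion, 32.4% and 29.5% were listed, and of those of PI3K-Akt 33.1% and 29.1%, beside 26.3% and 25.8% of all entries. Amoebiasis, with 31.2% and 33.0% of its genes listed, held 11 and 6 collagen genes. Platelet activation, in which fibrillar collagen is a trigger, held 6 and 3. It had 38 and 29 of its 131 background genes listed, near the share of all entries in HepG2 cells and, at 22.1%, under it in Huh7 cells. Pathways in cancer (32.1% and 30.0%) and Small cell lung cancer (33.7%, and 25.6% in Huh7 cells, at the share of all entries) each held 5 and 3, which were collagen IV chains. These rows share their collagen genes and are not separate observations. KEGG placed in any pathway 22 of the 30 collagen genes of the HepG2 list and 12 of the 17 of the Huh7 list. The 8 and 5 outside it included COL8A1, COL20A1 and COL25A1 in both cell lines.

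**Figure D3:**
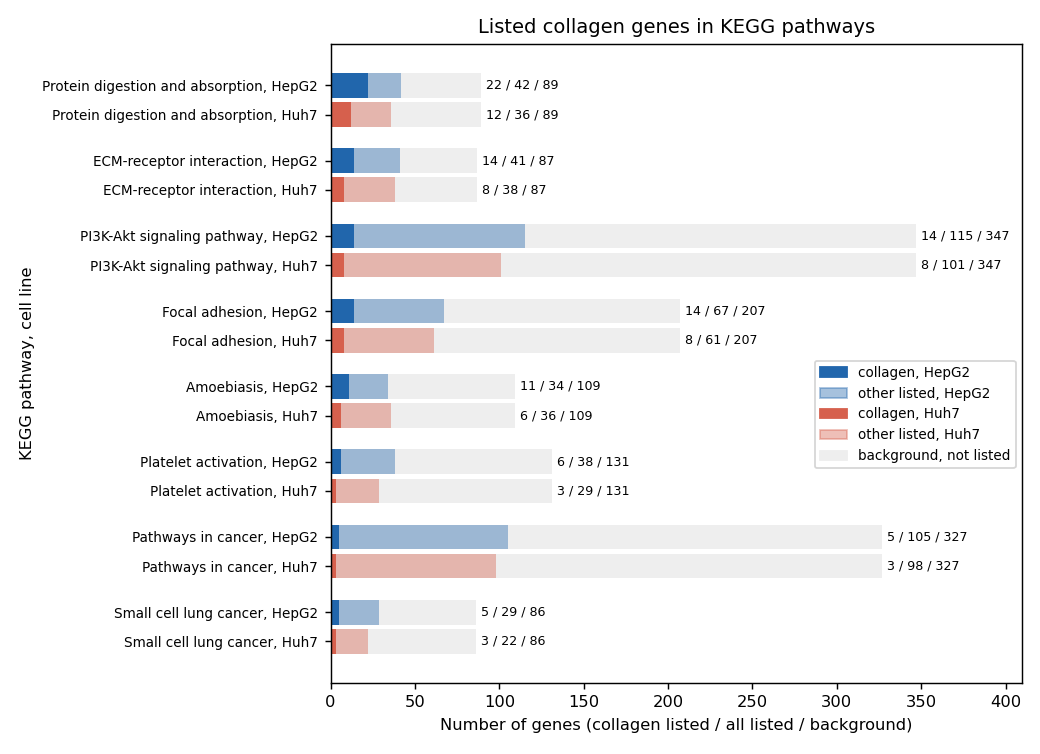
Each bar is a KEGG pathway in 1 cell line, and its full length is the number of background genes; the dark part counts listed collagen genes and the pale part the other listed genes. Protein digestion and absorption holds the most listed collagen genes, 22 of 42 for HepG2 and 12 of 36 for Huh7.

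The genes that make, bind and degrade collagens were counted in 6 lists of partners, 82 genes in all. Of the 82, 29 were in the HepG2 list (35.4%), 34 in the Huh7 list (41.5%) and 15 in each of them (18.3%), beside 23.9% and 21.9% of all protein-coding genes and 10.3% of the GO background in both. The count was higher in Huh7 cells for the partners and in HepG2 cells for the collagen genes; neither difference was tested. Hydroxylation of proline stabilises the helix and that of lysine prepares it for crosslinks. Of the 16 genes of this list, which also holds enzymes that act on the hydroxylated chains, the HepG2 list held 4 (25.0%) and the Huh7 list 2 (12.5%), with 0 shared and shares near or under those of all protein-coding genes. The 4 were the hydroxylases P3H2 and PLOD2 and the galactosyltransferases COLGALT1 and COLGALT2, which add sugar to hydroxylysine and do not hydroxylate. The 2 were P4HB, a subunit of the prolyl hydroxylase of collagen, and P3H3, of the prolyl hydroxylase family. Of the 14 genes of procollagen folding and secretion, 6 (42.9%) and 4 (28.6%, near the share of protein-coding genes) were listed, and 3 (21.4%) were in both: HSPA5, the main chaperone of the endoplasmic reticulum, SLC39A13, a zinc transporter of the secretory pathway, and CREB3L1, a transcription factor that acts on collagen genes. The chaperone specific to collagen, SERPINH1, was in the HepG2 list alone.

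The other lists cover steps outside the cell. Of the 13 genes of propeptide cleavage and crosslinking, the HepG2 list held 5 (38.5%) and the Huh7 list 8 (61.5%), and 3 (23.1%) were in both, beside 23.9%, 21.9% and 10.3% over all genes as above. The 3 were TLL1, a proteinase that cuts the C-terminal propeptide of procollagen, TLL2, a proteinase of the same family, and ADAMTS3, which cuts the N-terminal propeptide. Of the 10 collagen receptors, 4 (40.0%) and 6 (60.0%) were listed, and 3 were in both, the integrin subunits ITGA1 and ITGA11 and the receptor tyrosine kinase DDR2. Of the 18 fibril-associated matrix partners, the HepG2 list held 5, or 27.8% beside 23.9% of protein-coding genes, and the Huh7 list 8 (44.4%). The 2 in both, KERA, a corneal proteoglycan, and FN1, fibronectin, were 11.1%, near the 10.3% over all genes. Of the 11 collagen-degrading proteases, 5 (45.5%) and 6 (54.5%) were listed and 4 (36.4%) were in both. MMP1, the interstitial collagenase, MMP14, a membrane-bound collagenase, CTSK, a lysosomal protease that cuts collagen, and FAP, a cell-surface protease of activated fibroblasts, were in both.

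Markers of stellate cells and fibroblasts, the usual makers of fibrillar collagen in the liver, were counted in the same way. Of the 14 markers, the HepG2 list held 8 (57.1%) and the Huh7 list 6 (42.9%), beside 23.9% and 21.9% of all protein-coding genes. DES, PDGFRB, NGFR and VIM were in both lists, TAGLN, RGS5, GFAP and CYGB in that of HepG2 alone, ACTA2 and PDGFRA in that of Huh7 alone, and THY1, LRAT, HAND2 and FBLN2 in neither. No levels are given for these markers, and their part in the listing of the collagen genes was not tested.

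**Figure D4:**
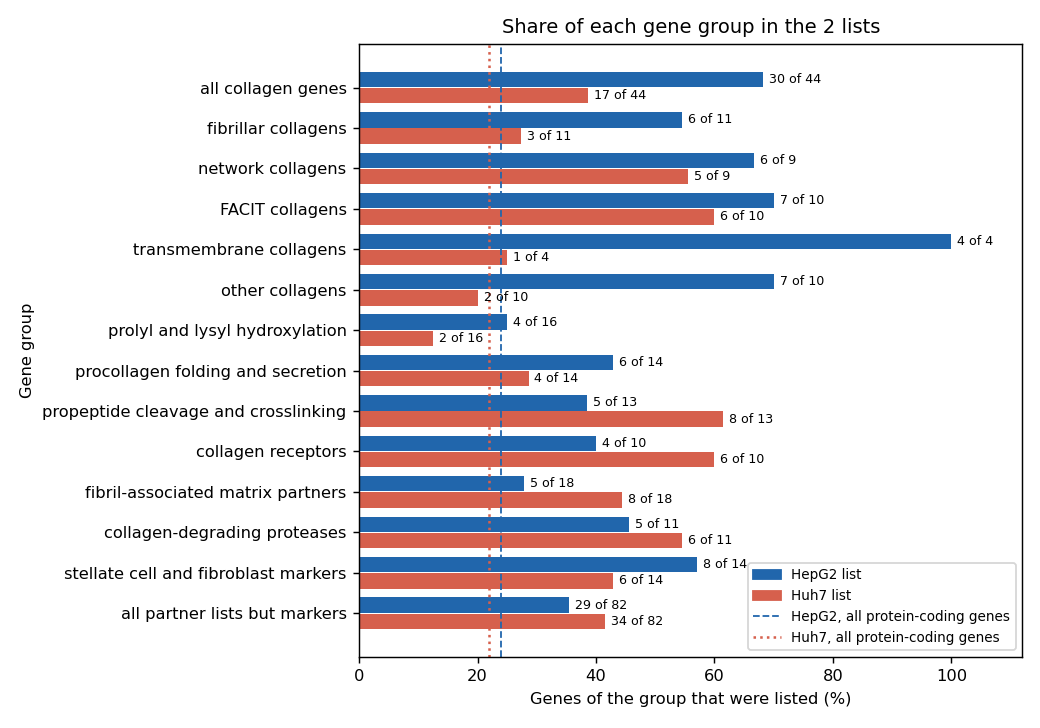
Bars give the percent of each gene group that was in the HepG2 list (blue) and in the Huh7 list (red), with the number of genes beside each bar; the lines mark the share of all protein-coding genes in each list, 23.9% and 21.9%. Collagen genes reach 68.2% and 38.6%, and the 6 partner lists together 35.4% and 41.5%.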

How the data were processed

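Total RNA of 4 libraries, HepG2 and Huh7 cells before and after SDT, was used, and groups followed the sample labels. The submitters' processing notes name Bowtie2 2.2.8, HISAT2, StringTie 1.3.1 and Cuffdiff 2.1.1. The study's methods name Cuffdiff for the calls of differential expression and its results name edgeR. The genome build is not given in the sources used here. From the called genes, GO terms had been tested with GOseq, and KOBAS had been used for KEGG. The authors deposited, per term or pathway, a count of listed genes, a count of background genes and the gene identifiers; these are numbers of genes, not of reads. Their p-value columns hold the authors' tests of over-representation and were not used. Depth was not used here.

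Lists were rebuilt as the union of identifiers over all GO terms, with Python 3.11.15; figures were drawn with matplotlib 3.10.9. The union code was tested on simulated data. Identifiers that are not of Ensembl, 15 and 9, stayed in the lists. All 44 collagen genes matched an identifier. Promoter windows, 250 bases before to 50 after the start, were matched in RefSeq for 32 of the 44; a summary of promoter composition over the collagen genes was void, since under 80% had a window. COL1A1, COL1A2, COL2A1, COL3A1, COL5A2, COL6A1, COL6A5, COL8A1, COL9A3, COL14A1, COL20A1 and COL22A1 had none. Collagen genes were named by class, partner genes where both lists held them, GO terms from those with the words collagen or extracellular matrix, and KEGG pathways as Protein digestion and absorption, ECM-receptor interaction and the 5 others with the most collagen genes, a tie at the last place kept. SERPINH1, the hydroxylation genes, the choice among those GO terms, the trimer of COL4A5 and COL4A6, the markers listed in 1 cell line or in neither, and basement membrane were added after their values were seen. The members and lists were chosen with earlier results of these data known. Alternatives used KEGG identifiers, either table, at least 10 GO terms, or cellular component terms. With 1 library a group, no test was made.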

Additional observations from a re-analysis of the deposited data

How the results depend on the processing

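All 16 alternative counts for the 7 results, the collagen genes of each list, of both lists and of the 2 KEGG pathways in each cell line, were within 1.5 times the main count, and 13 were equal to it. For 10 of the 13 no other value was possible, since every collagen gene in a KEGG table was in the GO table too and every listed one stood under the cellular component term collagen, so these equalities say nothing of stability. The exceptions came from KEGG identifiers in place of GO identifiers, which gave 22 in place of 30 collagen genes in HepG2 cells, 12 in place of 17 in Huh7 cells and 11 in place of 14 in both. KEGG places fewer collagens in pathways, so these counts are lower by construction. A minimum of 10 GO terms changed no count, since the listed collagen genes had from 19 to 219 GO terms in HepG2 cells and from 17 to 146 in Huh7 cells. Their medians were 88.5 and 86, and the median over all listed genes was 87 in each cell line.

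No analysis with libraries paired within a cell line was made, since no levels of genes are given. Each group had 1 library, so no library was left out and no spread between replicates was measured. A listing carries no level or direction, so whether a collagen gene of both lists moved the same way was not tested, nor was the number of reads behind each call.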

Other observations

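The GO term collagen had 46 of its 104 background genes in the HepG2 list (44.2%) and 31 of 104 in the Huh7 list (29.8%). Of the whole GO background, 21.6% and 19.7% were listed. The term also held genes that are not collagens by symbol, 16 of the 46 and 14 of the 31. Collagens among the 104 were not counted, so no share is given for the other genes. Both lists held 5 of these other genes: C1QTNF3, CCBE1, COLQ, EMILIN2 and SCARA3. COLQ encodes the collagen-like tail of acetylcholinesterase at the synapse. Others in the HepG2 list were the adipose hormone ADIPOQ, the complement subunit C1QC and the collectins COLEC10 and COLEC11, which carry a collagen-like stalk. Those in the Huh7 list included the lectins MBL2 and SFTPD, of the same build. All 33 collagen genes listed in either cell line stood under this term.

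The term positive regulation of collagen biosynthetic process held no collagen gene and had 15 of its 26 background genes in the HepG2 list and 12 of 26 in the Huh7 list, beside 21.6% and 19.7% of the GO background. The term for negative regulation had 6 of 17 (35.3%) and 3 of 17 (17.6%, under the share of the background), also with no collagen gene. Of the genes of positive regulation, both lists held 11, beside 10.3% of the GO background in both: CREB3L1, CTGF, F2, LARP6, MYB, PDGFRB, SCX, SERPINB7, SERPINF2, UCN and VIM. LARP6 binds the messenger RNA of collagen I, and SCX is a transcription factor of tendon. COL1A1 and COL1A2, the genes of collagen I, were in neither list. These genes were chosen after their values were seen.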
